A study of Danio rerio with 36 samples.

Results

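Whole eyes of zebrafish larvae carrying a heat-shock-promoter transgene for Sonic hedgehog, Transgenic (hsp70l:shha-eGFP), were compared with wild-type larval eyes at 5 days post-fertilization by RNA sequencing. The comparison takes 6 of the 36 libraries of the series: the shha libraries 11, 12 and 13 against the control libraries 11, 12 and 13, with the shared number as a pair. A second larval experiment with the same layout, Transgenic (hsp70l:eGFP-bmp4) eyes against 3 wild-type libraries of its own, is used below to ask which changes differed between the transgenes. The hsp70l promoter is that of a heat-inducible chaperone gene, so that the transgene answers to warmth in every tissue rather than in a chosen cell type, and no heating schedule is given in the sources used here. Nothing in the labels says whether libraries of a group came from separate fish, so the p-values below speak only of how far these libraries scatter, and part or all of that scatter may be technical. An eye library mixes all ocular cells, so fewer cells of a type and less RNA per cell cannot be told apart.

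Sonic hedgehog is a secreted signal. It binds Patched receptors and so frees the membrane protein Smoothened, which lets the Gli transcription factors activate their targets. The receptor gene PTCH1, the hedgehog-binding decoy HHIP and GLI1 are themselves targets in vertebrates, so their transcripts serve as a readout of the signal. In the developing eye the pathway is known for patterning the optic stalk and for driving waves of neuron birth in the retina. Genes are named with the symbols of the annotation table, in which capitals are names of the human counterpart.

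Libraries held between 22003063 and 26679182 counts assigned to genes, so the 6 were of similar depth. Library shha 13 stood apart from the rest. Its log2 expression correlated with the other shha libraries at 0.817 to 0.842 across genes, whereas every other pair of libraries within a group reached 0.956 to 0.969. It had 2206 genes more than 2-fold above and 4775 more than 2-fold below both other libraries of its group, against 160 to 276 above and 216 to 556 below for the other 5. Its 100 most abundant genes took 40.8% of its counts, against 23.1% to 26.5% elsewhere, and it detected 24143 genes against 24866 to 25455.

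The departure of shha 13 followed transcript length. With the genes split by length into 10 equal classes, its level in the 2081 shortest genes lay a median of 0.65 above the other shha libraries on the log2 scale, and in the longest class it lay 0.77 below them. The median of each control stayed within 0.065 of the other controls in every class. The same slope ran through the shha-minus-control difference of pair 13, with a median of 0.86 in the shortest class and -0.77 in the longest, while pairs 11 and 12 stayed between -0.092 and 0.057. What produced it was not tested. Results are therefore given over all 6 libraries and again without shha 13. Levels per library below are CPM, counts scaled to library size with edgeR's TMM factors, and are not corrected for gene length. The factor was 0.705 for shha 13 and 1.05 to 1.09 for the other libraries. CPM of shha 13 therefore stand higher against the others than counts over library size alone would. Whether a shha 13 value lies above or below a control can depend on this factor. TPM values are also scaled to length and carry no TMM factor. On log2(TPM + 1), the median shha-minus-control difference of all tested genes over 6 libraries was -0.27 by limma. By edgeR on counts it was -0.011. A TPM difference over the 6 libraries is therefore read beside that median.

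**Figure D1:**
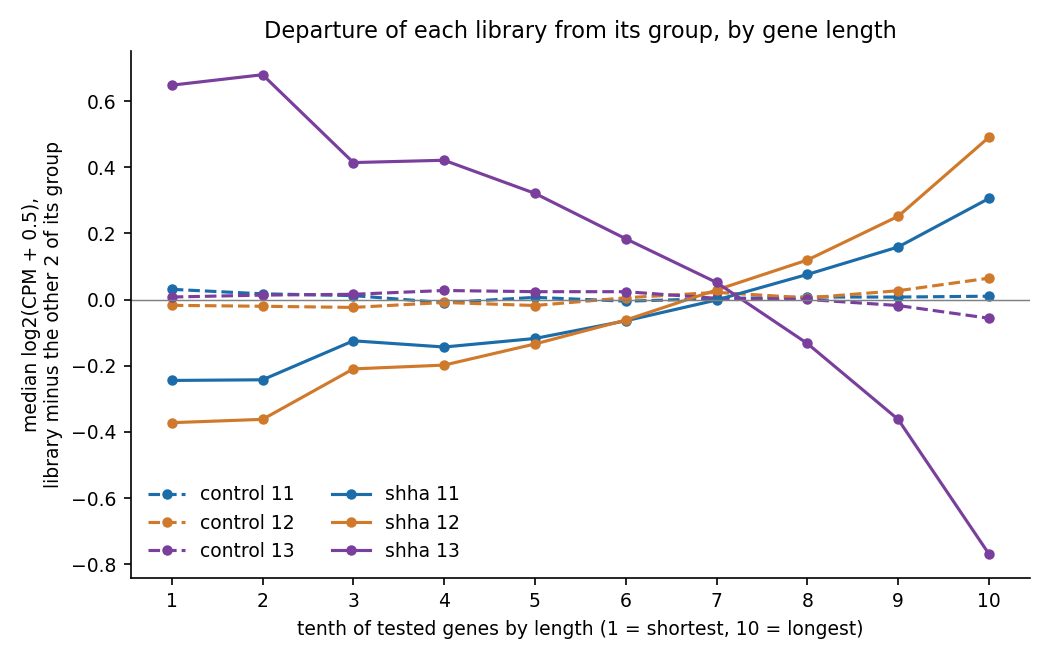
Median difference on the log2(CPM + 0.5) scale between each library and the other libraries of its group, for 10 classes of genes ordered from short to long. Lines of the 3 controls stay within 0.065 of 0, and the line of shha 13 falls from 0.65 in the shortest class to -0.77 in the longest.

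Under the symbol SHH, an identifier that may be the gene the transgene adds was higher in every transgenic library. SHH (ENSDARG00000068567), which encodes the ligand, measured 6.31, 16.95 and 6.87 CPM in controls 11, 12 and 13 and 51.9, 142 and 47.1 in shha 11, 12 and 13. Every transgenic library exceeded every control, and library 12 was the highest of its group on both sides. The log2 fold change was 2.96 (SE 0.17) over the 6 libraries and 3.05 (SE 0.09), or 8.29-fold, without shha 13. Transcripts of the transgene and of the resident gene share coding sequence and cannot be told apart in a gene count.

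A second identifier under the same symbol, SHH (ENSDARG00000038867), did not pass the test. It measured 2.98, 6.45 and 2.57 CPM in controls and 4.21, 7.56 and 4.98 in shha libraries, higher in all 3 pairs but with overlapping groups (log2 0.34, SE 0.18, adjusted p = 0.905 without shha 13). The annotation table does not say which identifier is the shha gene. The resident chaperone hsp70l, whose promoter drives the transgene, gave 31.6, 38.55 and 53.9 CPM in controls against 35.2, 41.9 and 191 in shha libraries. Only shha 13 was high for hsp70l, and without it the difference was 0.14 (log2, adjusted p = 0.925).

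Across all genes, edgeR's quasi-likelihood test with the pair as a block called 0 genes at an adjusted p under 0.05 in the 6 libraries (0% of 20812 tested). At an unadjusted p under 0.05 it counted 116 genes, and DESeq2 on the same counts called SHH (ENSDARG00000068567) and znf423, both higher. The lowest adjusted p was 0.762, shared by SHH despite its fold change. Without shha 13 the same fit called 21 of 21445 genes, 0.0979% of those tested: 14 higher (0.0653%) and 7 lower (0.0326%). Leaving out control 13 instead, which strips shha 13 of its partner in the block, called 34, among them all 21. With 5 libraries the fit keeps 1 residual degree of freedom, so its p-values lean on the spread pooled over genes, and without the block as well as without shha 13 it called 0 (341 genes at an unadjusted p under 0.05). DESeq2 on the same 5 libraries called 7 genes, 6 of them among the 21, including SHH, znf423, HHIP, FKBP5 and lgals1l1. Limma on log2(TPM + 1) called 18, with 5 among the 21: SHH, znf423, actc1c, lgals1l1 and si:dkeyp-3b12.11. Where no other fit is named below, log2 differences, standard errors and adjusted p-values come from edgeR without shha 13, while per-library values are given for all 6.

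Pair 13 can be set beside the calls made without its transgenic library. Of the 14 genes called higher, 13 had a positive difference in pair 13, and of the 7 called lower, 4 had a negative one. Among the 13 is actc1c, which had no counts in either library of pair 13. Its positive sign there comes only from the small constant added to counts before taking logs, so it shows no direction. Called genes already share a sign in pairs 11 and 12, so the background is the share of such genes: 3231 of the 5407 tested genes positive in pairs 11 and 12 were positive in pair 13, and 3107 of the 5354 negative in both were negative there. The 4 of 7 called lower are near that background. Over all tested genes, 15.5% were positive in all 3 pairs and 14.9% negative.

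**Figure D2:**
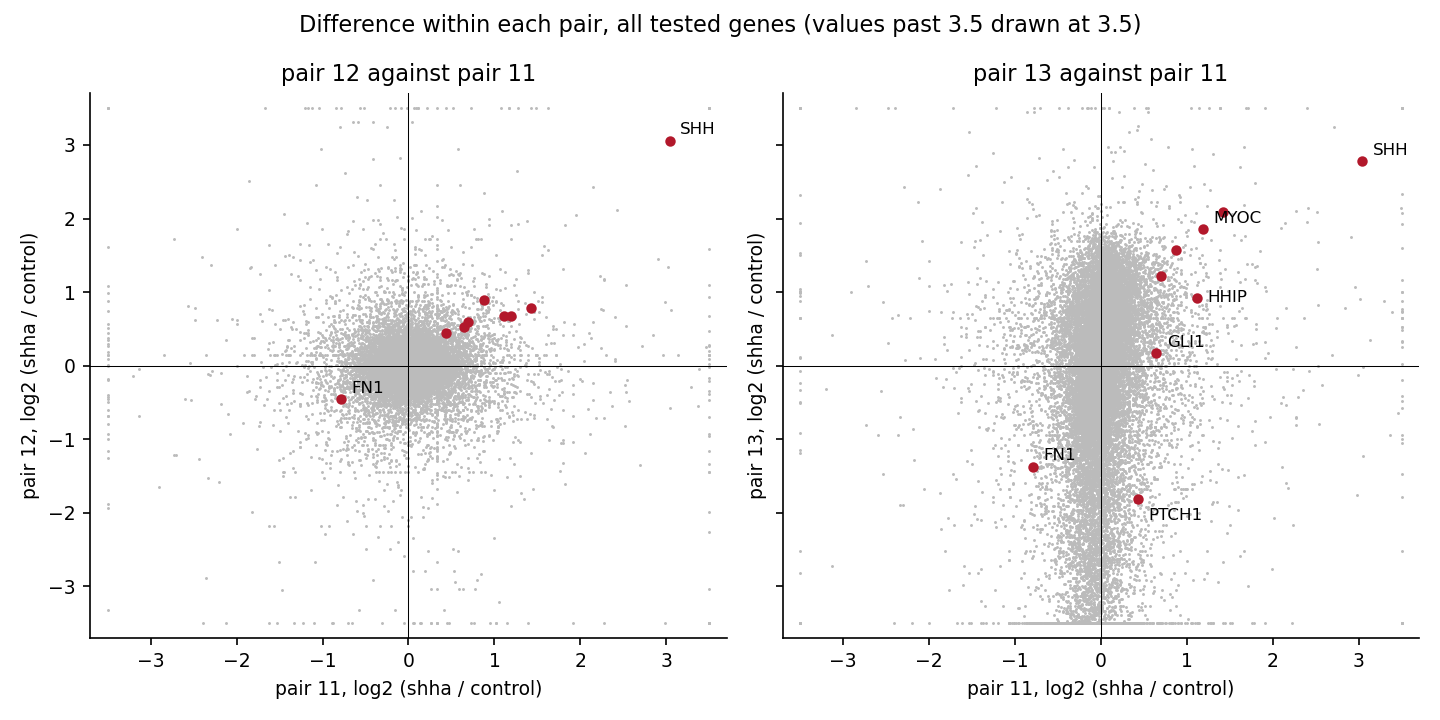
Log2 difference, shha minus control, of pair 12 and of pair 13 against pair 11 for the 20812 tested genes, with values beyond 3.5 drawn at 3.5. Of the 9 named genes in red, PTCH1 is positive in pairs 11 and 12 and negative in pair 13.

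Once shha 13 was set aside, the feedback target HHIP rose with the ligand, while PTCH1 and GLI1 did not pass the test. HHIP, the decoy that binds hedgehog ligands at the cell surface, measured 38.7, 50.03 and 29.6 CPM in controls and 83.7, 79.7 and 56.0 in shha libraries. Each shha library exceeded all 3 controls. HHIP rose 1.85-fold without shha 13 (log2 0.89, SE 0.10, adjusted p = 0.0101), and its log2 change over 6 libraries was 0.90 (adjusted p = 0.762). DESeq2 also called HHIP without shha 13 (adjusted p = 3.00e-04) and limma on TPM did not (adjusted p = 0.09). On TPM values pair 13 turned round, with 10.2 in control 13 and 9.62 in shha 13. Genes in general also read lower on that scale, with a median of -0.27 by limma over the 6 libraries.

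PTCH1, a Patched receptor, gave 23.34, 33.2 and 21.1 CPM in controls and 31.6, 45.3 and 5.996 in shha libraries, which reads 0.44 without shha 13 (SE 0.09, adjusted p = 0.084) and -0.26 with it. Within pairs 11 and 12 the shha library was the higher one, and shha 13 lay below every control. PTCH1 belongs to the second longest of the 10 length classes, where the median pair 13 difference was -0.38 and its own was -1.81.

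GLI1, the Gli factor that is itself induced by the signal, followed the same pattern in pairs 11 and 12. It measured 14.7, 15.5 and 12.7 CPM in controls and 23.1, 22.3 and 14.3 in shha libraries. The 2 higher values were shha 11 and 12, and shha 13 lay within the control range. Its difference of 0.59 (log2, SE 0.11) without shha 13 had an adjusted p of 0.0599, and over 6 libraries it was 0.45. GLI1 is also in the longest class, where the median pair 13 difference was -0.77 and its own was 0.17.

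**Figure D3:**
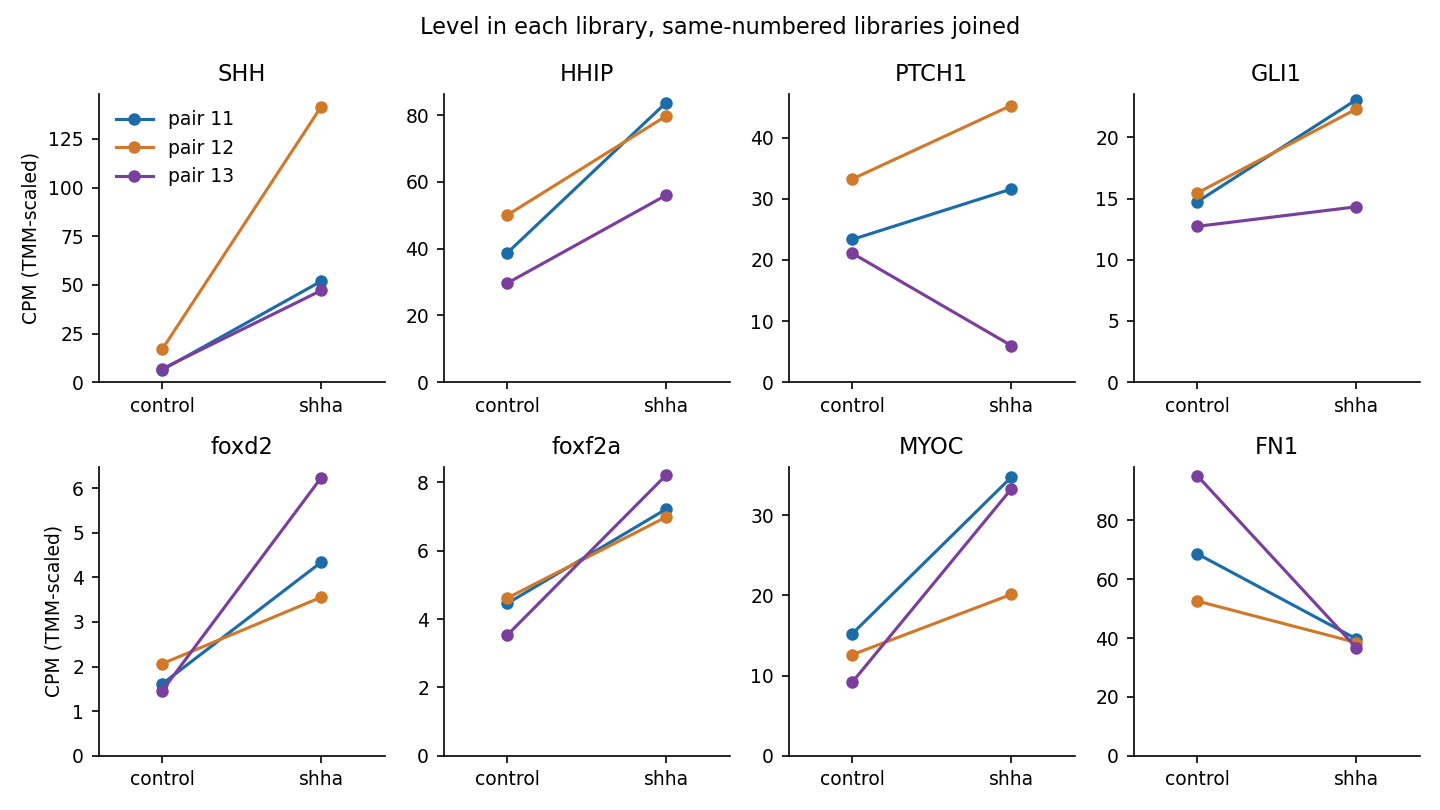
TMM-scaled CPM of 8 genes in each library, with same-numbered control and shha libraries joined and the axes starting at 0. SHH (ENSDARG00000068567) and HHIP are higher in all 3 shha libraries than in any control, while PTCH1 is at 5.996 in shha 13.

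Genes that release, receive or relay the signal without being its usual targets gave no call. SMO, which encodes Smoothened, gave 40.5, 38.2 and 42.7 CPM in controls and 36.6, 37.2 and 31.8 in shha libraries, a difference of -0.09 without shha 13 (adjusted p = 0.967). GLI3, the Gli factor that acts chiefly as a repressor, gave 15.7, 14.1 and 15.0 against 11.34, 12.6 and 5.70, every shha library below every control. Its change of -0.32 (SE 0.13) did not pass the test (adjusted p = 0.766). GLI3 is in the longest length class, where the median pair 13 difference was -0.77 and its own was -1.39. DISP1, which releases lipid-modified ligand from the producing cell, read 19.7, 15.0 and 22.9 in controls and 16.6, 15.5 and 4.86 in shha libraries, with only shha 13 well outside the range. The co-receptor BOC measured 49.8, 51.5 and 44.2 CPM in controls and 41.5, 52.2 and 31.8 in shha libraries, with overlapping groups.

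Of the 11 forkhead transcription factor genes in the hedgehog response list, 9 were tested without shha 13, and none was called. The difference was positive for 7 and negative for 2, FOXQ1 and foxd1, beside 10550 positive of 21445 genes in all. The gene foxd2 measured 1.61, 2.06 and 1.46 CPM in controls and 4.34, 3.55 and 6.24 in shha libraries, with no overlap between groups (log2 1.103, SE 0.27, adjusted p = 0.242 without shha 13, and 1.43 with it). Also without overlap, foxf2a gave 4.46, 4.61 and 3.53 against 7.22, 6.98 and 8.21 (log2 0.65, SE 0.17, adjusted p = 0.365). FOXC1 and foxc1b, forkhead factors of the periocular mesenchyme, read 0.44 and 0.53 without shha 13 (adjusted p = 0.202 and 0.348), positive in all 3 pairs on the CPM scale; for FOXC1 the TPM values of pair 13 went the other way, 7.49 in the control and 7.30 in shha 13. Their relative foxl1 gave 4.18, 5.36 and 4.49 CPM against 5.50, 6.03 and 8.75, without overlap but with a log2 difference of 0.28 (adjusted p = 0.928). Its pair 13 difference on the CPM scale was 0.963, near the 0.957 of FOXC1, so its direction there may also depend on the scale. The same holds for genes of other paragraphs with smaller pair 13 differences, such as SHH (ENSDARG00000038867, 0.952), CRABP2 (0.67) and FKBP5 (0.15). FOXQ1 went the other way in pairs 11 and 12, with 8.46, 5.29 and 4.03 CPM in controls and 5.97, 3.47 and 6.06 in shha libraries (log2 -0.55, SE 0.17, adjusted p = 0.529).

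As lists, hedgehog genes did not move one way. Among 97 list genes tested without shha 13, 3 were called higher, SHH and HHIP among them, and 0 lower, where edgeR called 0.0653% and 0.0326% of all genes. At an unadjusted p under 0.05, 13 of the 97 were higher and 5 lower, beside 3% and 2.86% of all genes. Among the 13 are the ligand, PTCH1, HHIP, its relative HHIPL2, GLI1, the forkhead genes foxf2a, foxd2, FOXC1 and foxc1b, and OSR1, SOX9 (ENSDARG00000043923) and FGF8 (ENSDARG00000039615). The 5 lower were PTCHD1, GNAS, GLI3, FOXQ1 and PRDM1. Over 6 libraries, 19 of 96 tested were positive in all 3 pairs and 18 negative, beside 15.5% and 14.9% of all genes. By role, 1 of 11 ligand and release genes, 2 of 17 receptor genes, 0 of 29 transducers and 2 of 47 response genes were called higher. Some called genes, HHIP among them, stand in 2 of the lists. Receptor genes were long, with 11 of 17 in the 2 longest length classes, and their median pair 13 difference was -1.17, against -0.14 and 0.05 in pairs 11 and 12.

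**Figure D4:**
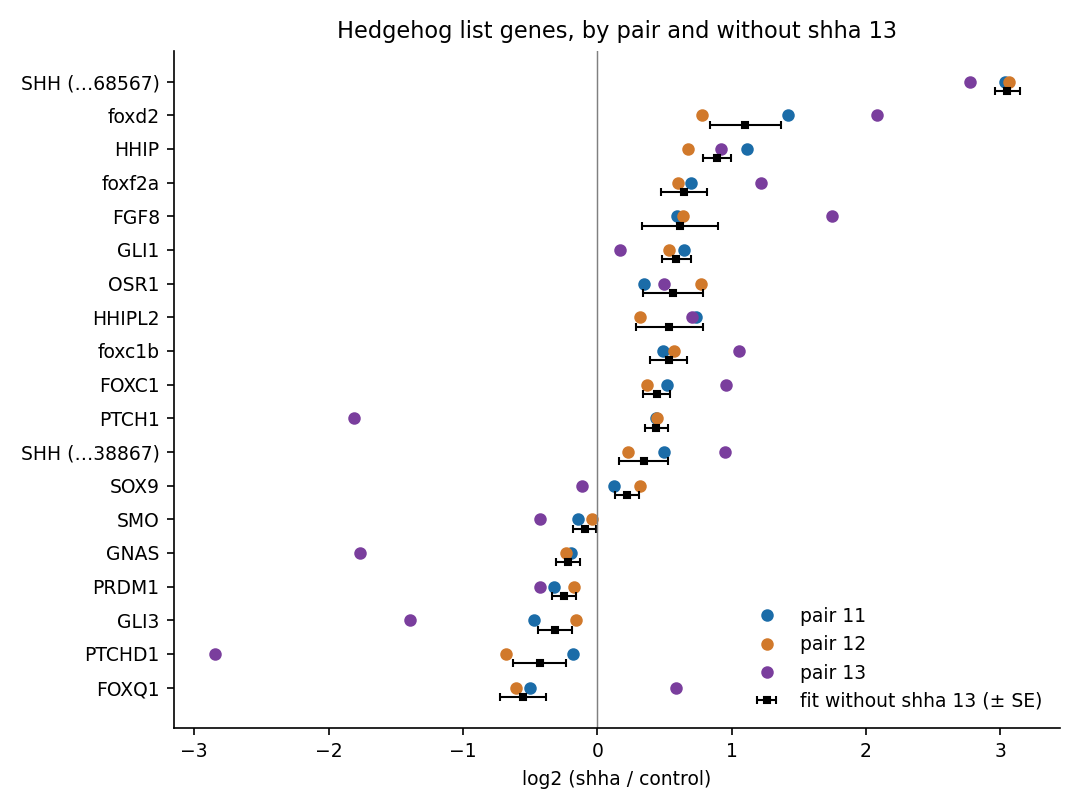
Log2 difference, shha minus control, of 19 hedgehog genes in each pair (dots), with the edgeR estimate and its SE without shha 13. SHH (ENSDARG00000068567) stands at 3.05 and HHIP at 0.89.

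Outside the pathway, MYOC rose while FN1 fell, and in both of them all 3 shha libraries lay on the same side of all controls. MYOC encodes myocilin, a secreted glycoprotein known in humans from the aqueous outflow tissue. It measured 15.22, 12.6 and 9.17 CPM in controls and 34.8, 20.1 and 33.3 in shha libraries, without overlap, and rose 1.93-fold without shha 13 (log2 0.95, SE 0.13, adjusted p = 0.0107). FN1 (ENSDARG00000006526), a fibronectin of the extracellular matrix, measured 68.6, 52.58 and 95.2 CPM in controls and 39.7, 38.5 and 36.8 in shha libraries, again without overlap (log2 -0.62, SE 0.09, adjusted p = 0.0134). DESeq2 without shha 13 gave adjusted p = 0.141 for MYOC and 0.127 for FN1. FN1 is in the longest length class, where the median pair 13 difference was -0.77 and its own was -1.37. MYOC is in a class with a median of 0.07 and read 1.86 in that pair. How far either value goes with the length departure was not tested.

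Of the other called genes, most were higher. The galectin gene lgals1l1 measured 19.5, 15.3 and 29.7 CPM in controls and 35.8, 28.3 and 88.3 in shha libraries, higher within each pair although the ranges overlapped (log2 0.88, SE 0.09, adjusted p = 3.18e-04). FKBP5, a co-chaperone of steroid hormone receptors, gave 18.4, 26.5 and 27.1 against 31.9, 48.9 and 30.0, without overlap, though shha 13 was only a little above its partner (log2 0.84, SE 0.09, adjusted p = 3.18e-04). The small heat shock protein gene HSPB1 rose by 0.47 (adjusted p = 0.0206), the embryonic alpha-globin gene hbae1.2 by 0.54 (adjusted p = 0.0137) and si:dkeyp-3b12.11 by 0.64 (adjusted p = 0.0065). The transcription factor gene CEBPB fell by 0.53 (adjusted p = 0.0162), with pair 13 the other way at 96.8 CPM in control 13 and 152 in shha 13. A further called gene with no symbol, ENSDARG00000090394, rose by 0.53 (adjusted p = 0.0254). HSPB1, hbae1.2, si:dkeyp-3b12.11, CEBPB and ENSDARG00000090394 were not called by DESeq2 without shha 13. HSPB1, hbae1.2, si:dkeyp-3b12.11 and lgals1l1 lie in the 2 shortest length classes, where the median pair 13 difference over all genes was 0.78 and 0.86, so their positive sign in pair 13 is one that short genes in general had.

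Further called genes had few or no counts in some libraries. The zinc finger gene znf423 had 5, 19 and 198 counts in controls and 74, 240 and 385 in shha libraries, higher in each pair, with control 13 above shha 11 (log2 3.89, SE 0.27, adjusted p = 2.88e-06). An actin gene, actc1c, had 0 counts in all controls and 39, 52 and 0 in shha libraries. On pooled counts it was at least 52.3-fold higher without shha 13 and 38.7-fold over all 6, with the floor of 3 counts set over the control group. Such a bound leaves out the scatter between libraries, and pair 13, at 0 on both sides, showed no rise. A further 4, ENSDARG00000057102, si:ch211-211k8.4, zp2.1 and si:ch211-57b15.1, were at 0 in both control libraries of pairs 11 and 12 (the first 2, higher) or in both shha libraries (the last 2, lower), and no fold is read from them.

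In the fit of all 6 libraries, the 12 positive and the 12 negative genes with the smallest p-values were picked among those with a symbol, a mean of at least 1 CPM in a group and the same sign in all 3 pairs. EdgeR called none of them, and their shared sign is part of the choice. Besides SHH, HHIP, znf423, lgals1l1, MYOC, foxd2 and si:dkeyp-3b12.11, described above, the higher side held STC2, a stanniocalcin hormone gene, at 5.89, 10.2 and 7.98 CPM in controls and 13.3, 15.5 and 22.6 in shha libraries. Every shha library exceeded every control for STC2 (log2 0.87, SE 0.15, adjusted p = 0.0536 without shha 13). A gene known only as si:dkey-221l4.9 had 0 counts in every control and 21, 24 and 27 in shha libraries, at least 30.6-fold higher on pooled counts. That bound, too, leaves out the scatter between libraries. SCG5, which encodes a chaperone of neuroendocrine secretory granules, gave 7.78, 2.48 and 14.2 CPM in controls and 11.6, 5.91 and 46.6, with overlapping groups. The other 2 were si:dkey-13a3.5 and si:ch73-376g11.3.

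The lower side held FN1 and several weakly expressed genes. The cytokine receptor gene il12rb2 had 43, 41 and 41 counts in controls and 14, 17 and 14 in shha libraries, and RAG1, the recombinase of antigen receptor genes, had 46, 44 and 35 against 22, 18 and 9. Neither group overlapped the other, and the adjusted p without shha 13 was 0.645 and 0.794. PFKFB3, which controls glycolytic flux, read 214, 95.4 and 224 CPM in controls and 152, 76.0 and 153 in shha libraries, lower within each pair although the ranges overlapped (log2 -0.41, adjusted p = 0.0536). The unnamed si:dkey-103d23.3 gave 37, 28 and 31 counts against 8, 6 and 3. The others were si:dkey-17m8.1, si:dkey-18b8.8, si:dkey-247i3.6, ftr37, cmya5, irgq1 and znf1175.

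Marker genes of the tissues of the eye were read in all 6 libraries. Lens genes summed to 154367, 167968 and 195366 TPM in controls and 186281, 169468 and 240171 in shha libraries, and cone genes to 11345 to 19068 TPM, so eye markers were present as the label states. Rod genes varied by pair rather than by group: 2439, 6963 and 3019 TPM in controls and 2703, 6505 and 2808 in shha libraries, with pair 12 high on both sides. Circadian clock genes summed to 3872, 3728 and 3833 TPM in controls and 3600 and 3652 in shha 11 and 12, and shha 13 alone was low at 1380. A low sum in shha 13 was not particular to this list, although the lens sum was high there. Retinal ganglion cell genes fell from 1594 TPM in control 13 to 815 in shha 13, and hedgehog transducers from 622 to 294. Of the 44 clock genes, 12 lie in the 2 longest length classes.

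Several lists had more positive than negative members in all 3 pairs, beside 15.5% and 14.9% of all genes, though no member of the first 3 was called in either fit. In the lens list, which holds crystallins and lens membrane proteins, 26 of 62 tested genes were positive in all 3 pairs and 0 negative, and without shha 13, 16 of 64 were higher at an unadjusted p under 0.05 and 1 lower. Median differences were 0.31, 0.01 and 1.27 in pairs 11, 12 and 13, and 41 of the 62 genes lie in the 2 shortest length classes, which were high in shha 13. Cell cycle genes counted 28 positive and 2 negative of 63, with medians of 0.20, 0.03 and 0.68; PCNA, the replication clamp, gave 230, 290 and 235 CPM in controls and 310, 310 and 527 in shha libraries (adjusted p = 0.573). Genes of the retinal pigment epithelium and visual cycle counted 22 positive and 1 negative of 44, and the heat shock list 21 and 1 of 44, with HSPB1 its only called member. These counts are on the CPM scale, and the direction in pair 13 can depend on the scale. Summed TPM fell from 2523 in control 13 to 2288 in shha 13 for cell cycle genes, and from 5614 to 5130 for heat shock genes. For the pigment epithelium list it rose from 7748 to 8213, and the lens sum rose too.

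In the other lists described here, the balance of directions differed. The matrix list of scleral and corneal fibroblasts split 10 positive to 10 negative of 53 in all 3 pairs, with FN1 the only call, and LUM, the corneal proteoglycan lumican, at 13.9, 21.9 and 11.7 CPM in controls against 23.1, 26.2 and 20.4 with overlapping groups (log2 0.49, adjusted p = 0.321). Retinal ganglion cell genes had 1 of 39 higher and 7 lower at an unadjusted p under 0.05 without shha 13, and Wnt genes 9 higher and 0 lower of 55 (10 positive and 3 negative in all 3 pairs), beside 3% and 2.86% of all genes and with no call in either list. Among retinoic acid genes, 4 of 29 were higher and 1 lower at that level. They include rbp5, a retinol-binding protein gene that read 109, 133 and 124 CPM in controls and 189, 171 and 313 in shha libraries without overlap (log2 0.58, SE 0.10, adjusted p = 0.133, and 0.0371 by DESeq2), and CRABP2, a retinoic acid carrier, at 64.7, 69.0 and 59.4 against 90.9, 80.3 and 94.5, also without overlap (adjusted p = 0.243). LRP2, an endocytic receptor gene that other libraries of the series are about, measured 302, 315 and 217 CPM in controls and 237, 340 and 86.9 in shha libraries, a difference of -0.12 without shha 13 (adjusted p = 0.967), and shha 13 was far below the rest. LRP2 is in the longest class of genes.

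The difference between transgenes was tested in 1 model over the 12 larval libraries, each line with its own controls and pairs. Over all 12, it called 2 genes of 21835, BMP4 and SHH (ENSDARG00000068567), which carry the symbols of the genes the transgenes add. Without shha 13 it called 122 of 22306 (0.547%), of which 102 were called within the bmp4 line and 12 within the shha line, 2 of them in both, and 10 in neither. HHIP read 0.89 in the shha line and -0.08 in the bmp4 line, a difference of 0.97 (SE 0.13, adjusted p = 0.00474). MYOC read 0.95 and -0.27 (difference 1.22, SE 0.17, adjusted p = 0.00867). PTCH1 was called within the bmp4 line, at 0.35 (SE 0.07, adjusted p = 0.0251), close to its 0.44 in the shha line, and the difference of 0.09 (SE 0.11) did not pass the test (adjusted p = 0.783). GLI1 read 0.59 and 0.31, a difference of 0.28 (SE 0.15, adjusted p = 0.478). The lgals1l1 and hbae1.2 genes were called in both lines in opposite directions, lgals1l1 at 0.88 against -0.54 and hbae1.2 at 0.54 against -0.62.

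**Figure D5:**
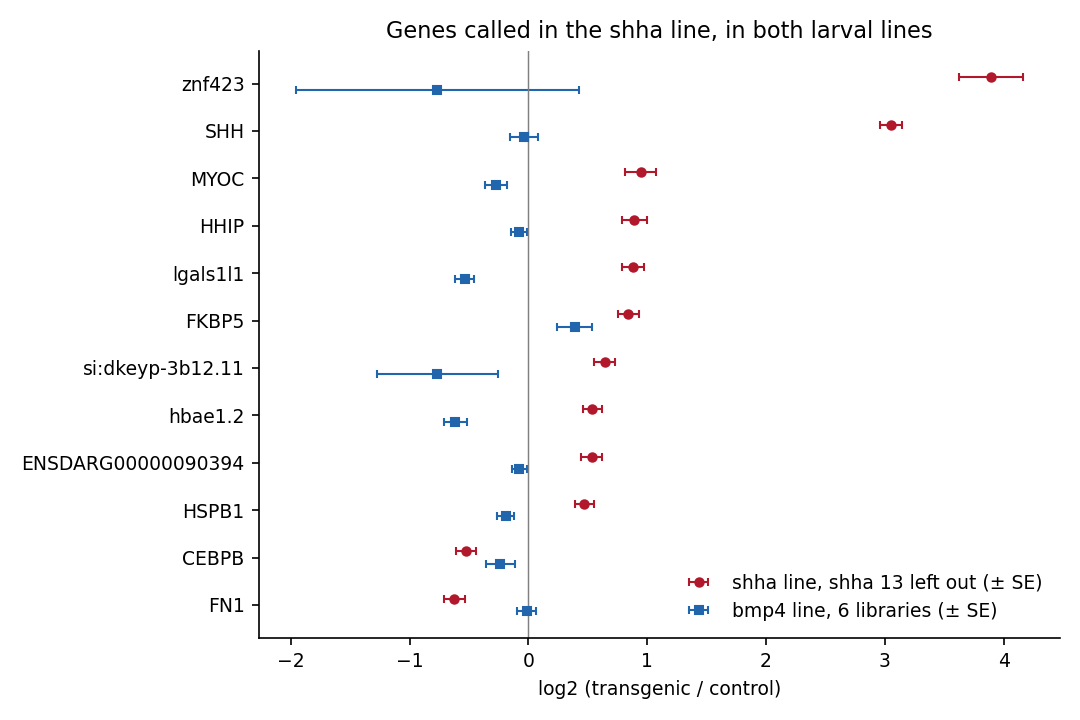
Log2 difference from control with its SE for 12 genes called in the shha line without shha 13, in the shha line and in the bmp4 line. HHIP and MYOC are at 0.89 and 0.95 in the shha line and at -0.08 and -0.27 in the bmp4 line, and lgals1l1 changes sign between lines.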

How the data were processed

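Expected counts per gene and TPM (abundance scaled to gene length and library size) were used as deposited by the authors, for 31916 genes. Per the submitters' processing notes, reads were handled with Bowtie2 and HISAT on the GRCz10 build, with roles and versions unstated. RNA came from whole larval eyes and a low-input library protocol, per the labels' protocols. Symbols were found for 26108 gene identifiers.

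After rounding, the edgeR package (4.0.16, under R 4.3.3) tested the expected counts (filterByExpr, TMM, robust quasi-likelihood F test, Benjamini-Hochberg adjustment over the tested genes, calls at 0.05), with the replicate number as a block. Standard errors are the log2 fold change over the root of F. The shared number was set as the pair beforehand. Same-numbered libraries deviated together (correlations 0.23, 0.37 and 0.24, and between other numbers -0.31 to -0.06). Deviations are taken from the group mean, so positive values for same numbers tend to go with negative ones elsewhere. The negative values are therefore not separate evidence for the pairing. Gene length was read as count over TPM, relative to the median gene. Scripts were tested on simulated counts.

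The genes named are those called, the 12 smallest p-values in each direction, SHH, hsp70l and members of 39 gene lists; a few that these rules pick are not reported here. Comparison, rule and lists were chosen with earlier results of these data known. Alternatives were DESeq2 1.42.0, limma 3.58.1 on log2(TPM + 1), other size factors, no filter, no block and each library left out. Combinations of these with shha 13 left out, quality weights and a length offset were chosen after seeing the data. Depth was 22003063 to 26679182 counts per library, and library sizes enter every fit on counts. Limma on log2(TPM + 1) used the TPM scaling as given, with no further size factor.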

Additional observations from a re-analysis of the deposited data

Results flagged for a closer look

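The genes below changed differently in the shha line than in the bmp4 line, by the interaction test of edgeR without shha 13 over 22306 genes. Values are the shha change minus the bmp4 change on the log2 scale, and each change was measured against the line's own controls. Their causes were not tested.

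The test called 122 genes (0.547% of those tested), and 7 of them were hedgehog list genes, not all of which are given here. Among hedgehog genes the difference was 3.09 for SHH (ENSDARG00000068567, adjusted p = 1.96e-07) and 0.97 for HHIP. The secreted protein genes MYOC and STC2 differed by 1.22 and 1.38 (adjusted p = 0.00867 and 0.0158), and STC2 was -0.51 in the bmp4 line. Carriers of retinoids differed as well: rbp5 by 0.77 (0.58 in the shha line, -0.19 in the bmp4 line, adjusted p = 0.0214) and CRABP2 by 0.94 (0.35 and -0.59, adjusted p = 0.0026), although edgeR called neither within the shha line. The galectin gene lgals1l1 differed by 1.42, hbae1.2 by 1.15, HSPB1 by 0.66 and ENSDARG00000090394 by 0.61.

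The value was -8.27 for zp2.1 and -8.39 for si:ch211-57b15.1, fitted values of genes at 0 counts in both shha libraries used, which depend on the prior count and are no bound.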

How the results depend on the processing

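The count of calls depends on both shha 13 and the replicate block. Over 6 libraries edgeR called 0 higher and 0 lower, also with RLE size factors, without the filter and by limma on TPM; DESeq2 called 2 higher, 1 of them in the hedgehog lists. With 1 library left out the counts ran from 0 to 22 higher, 0 to 12 lower and 0 to 4 hedgehog genes higher, and only leaving out shha 13 or control 13 gave calls. Both of these fits read the transgene effect from pairs 11 and 12 alone. With shha 13 left out, DESeq2 called 6 higher and 1 lower (2 hedgehog genes higher), RLE size factors 25 and 11 (5), no filter 69 and 42 (7) and limma 11 and 7 (1), while edgeR with no replicate block called 0 and 0 (0), as it did with no block over 6 libraries. Library quality weights gave 5 and 1 (1), with weights of 0.117 for shha 13 and 0.139 for control 13 against 2.18 to 3.57. With the block, the residuals of the libraries of a pair are tied to each other. These weights therefore do not say which library of pair 13 departs. A length offset gave 0 and 0 (136 genes at an unadjusted p under 0.05). The interaction with the bmp4 line called 2 genes, 5 with no replicate block and 122 without shha 13. The cause was not tested.

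Of 75 named genes with a value over 6 libraries, 66 kept their sign throughout. PTCH1 (-0.26) read 0.095 without the block, 0.57 without block and shha 13, and, with shha 13 left out, 0.44 by DESeq2, RLE and without the filter and 0.35 by limma, and 0.42 with quality weights. CEBPB read 0.11 without the block; without block and shha 13, LRP2 read 0.055, TYR 0.15 and hsp70l -0.10. With the length offset LRP2 read 0.044 and SMO 0.10. SOX9 (ENSDARG00000043923) read -0.22 by limma on TPM over 6 libraries, a fit in which the median of all tested genes was -0.27. With 1 library left out, PTCH1 ran from -0.68 to 0.44, CEBPB from -0.53 to 0.096, FOXQ1 from -0.55 to 0.040 and zp2.1 from -8.14 (a fit on 0 counts in the remaining shha libraries, which is no bound) to 0.35.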
